A study of Mus musculus with 36 samples.

Results

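The 10 genes described here encode the TGFβ and activin ligands and the proteins that hold them inactive: the TGFβ genes Tgfb1, Tgfb2 and Tgfb3, the activin subunit genes Inhba and Inhbb, the latent TGFβ binding protein (LTBP) genes Ltbp1, Ltbp2, Ltbp3 and Ltbp4, and the follistatin gene Fst. They were listed by gene name for this role, with earlier results of these data known, and are 10 of the 20960 gene names in the deposited expression tables. All 10 were listed in each of the 3 tables and passed the filter on low values in each.

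TGFβs are secreted as dimers still wrapped in their own propeptide, which keeps them latent. An LTBP is commonly linked to the propeptide in the secretory pathway and ties the latent complex to fibrillin-rich matrix, from which integrins and proteases can free the ligand. Activins are dimers of inhibin beta subunits; their propeptides do not impose the same latency, and the secreted antagonist follistatin binds the mature dimer and blocks it. Both ligand classes signal through type I receptors that phosphorylate the same receptor-regulated SMAD proteins, a pathway known for epithelial-mesenchymal transition in pancreatic cancer cells and for mesoderm and endoderm formation in the early embryo.

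The expression libraries number 20 and come from 3 mouse culture systems. KSIC_806 pancreatic ductal adenocarcinoma (PDA) cells labelled KO or WT for the zinc finger transcription factor gene Rreb1 received TGFβ (100 pM, 1.5 h) or SB505124 (2.5 µM, 6 h), an inhibitor of the TGFβ and activin type I receptors, giving the groups KO TGFβ, KO SB, WT TGFβ and WT SB with 2 libraries each. E14 embryonic stem cells labelled KO or WT for Rreb1 were sampled at day 4 of embryoid body (EB) culture and at day 0, giving KO day 4, KO day 0, WT day 4 and WT day 0 with 2 libraries each. Organoids of pancreatic epithelial cells labelled CIY received the same TGFβ or SB505124 treatment with or without doxycycline (dox, 1 µg/mL at plating), with 1 library per condition; the labels do not say what doxycycline switches in these cells. All PDA libraries also carry the mark S4, which the labels do not explain. The PDA and organoid libraries include no untreated group, and the reference of each TGFβ comparison received SB505124. Ligand, inhibitor and exposure time thus differed together, so each TGFβ comparison carries all of them and they cannot be told apart. A rise or fall under TGFβ is therefore relative to cells given the inhibitor. The labels name no separate cultures, lines or clones, so p-values measure the spread between these libraries, and genotype cannot be told apart from anything else in which the KO and WT cells differ.

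Recovered depth was 23.91 to 35.81 M reads in the organoids and 19.89 to 29.08 M in the E14 series. In the PDA cells it was 20.41 M in KO SB replicate 1 and 38.73 to 44.50 M in the other libraries. Keratins of simple epithelia (Krt8, Krt18 and Krt19) and Cdh1 were high in organoids and PDA cells, whereas the claudin gene Cldn7 averaged 0 to 2.10 in the PDA groups, far below its 4876 to 5714 in organoids. The epithelial gene Epcam was lower in PDA cells too, averaging 77.3 to 349 in the PDA groups against 10496 to 21939 in organoids. The pluripotency genes were high in all E14 libraries. Rreb1 transcript was present in every library labelled KO. In normalized reads it was lower in KO than in WT cells under TGFβ (2886 and 2560 against 4293 and 4212) and higher in KO under SB505124 (2164 and 2195 against 1458 and 1501). In E14 cells the genotypes overlapped at day 4 (KO 1920 and 1512, WT 1482 and 1586), and KO libraries were the higher ones at day 0 (2642 and 2830 against 1085 and 1019). These levels go against the KO label in part. A gene-level count cannot show a small edit, so KO and WT are used only as labels here, also where a direction between them is given.

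The upstream sequences of the ligand genes are shown because these genes set which ligand a cell can make, and their levels moved in different directions between conditions. The RefSeq promoter table (GRCm38.p6, the mm10 build) matched 8 of the 10 genes, all but Fst and Tgfb3. Printed below are the 250 bases before the listed transcript start of the 4 matched ligand genes, read on the gene's own strand from 5′ to 3′. The windows are chr13:16011601-16011850 (plus strand) for Inhba, chr1:119422249-119422498 (minus strand) for Inhbb, chr7:25686752-25687001 (plus strand) for Tgfb1 and chr1:186705990-186706239 (minus strand) for Tgfb2. The Inhbb and Tgfb1 windows directly adjoin the annotated genes (chr1:119415463-119422248 and chr7:25687002-25705077). The Inhba and Tgfb2 windows precede starts that lie inside the annotated spans (chr13:16004256-16031609 and chr1:186622787-186709697). Capitals mark matches to a searched motif, all other bases being in lower case.
Inhba: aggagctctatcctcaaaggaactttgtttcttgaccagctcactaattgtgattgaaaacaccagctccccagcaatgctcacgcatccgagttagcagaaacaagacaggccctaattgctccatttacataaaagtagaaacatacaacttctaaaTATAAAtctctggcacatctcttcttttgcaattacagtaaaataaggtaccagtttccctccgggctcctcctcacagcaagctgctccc
Inhbb: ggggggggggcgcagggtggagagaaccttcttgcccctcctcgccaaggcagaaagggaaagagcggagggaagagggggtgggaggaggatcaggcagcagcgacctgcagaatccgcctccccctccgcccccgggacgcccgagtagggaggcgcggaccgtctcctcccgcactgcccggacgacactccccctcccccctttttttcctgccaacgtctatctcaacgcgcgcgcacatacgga
Tgfb1: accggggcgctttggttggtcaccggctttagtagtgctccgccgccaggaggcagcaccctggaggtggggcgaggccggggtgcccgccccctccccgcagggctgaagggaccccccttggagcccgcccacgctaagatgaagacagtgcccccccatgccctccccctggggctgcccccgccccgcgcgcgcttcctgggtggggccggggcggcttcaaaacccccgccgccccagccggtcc
Tgfb2: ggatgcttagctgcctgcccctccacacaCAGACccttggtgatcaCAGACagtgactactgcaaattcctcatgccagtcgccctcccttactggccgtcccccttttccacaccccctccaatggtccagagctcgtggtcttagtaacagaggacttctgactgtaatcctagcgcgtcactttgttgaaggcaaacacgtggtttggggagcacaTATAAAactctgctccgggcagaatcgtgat

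Motifs were searched on both strands: the SMAD element CAGAC, held by 42.2% of the 32851 promoter windows of the same length, the SMAD palindrome GTCTAGAC (0.167%), the AP-1 element TGANTCA (6.75%), the cAMP response element TGACGTCA (1.55%), the ras-responsive core AAACCACC (0.868%) and the TATA box TATAAA (12.4%). None of these motifs contains another. The Tgfb2 window held CAGAC at 221 and 204 bases before the start and TATAAA at 31. The Inhba window held TATAAA at 91 bases before the start, and the Inhbb and Tgfb1 windows held no match. The windows also differed in base composition, with a GC content of 43.2% for Inhba, 53.6% for Tgfb2, 68% for Inhbb and 75.2% for Tgfb1, against a median of 52.4% over all windows. Among the latency genes, the Ltbp3 window held CAGAC at 58 and AAACCACC at 164 bases before its start, the Ltbp2 window held CAGAC at 205 and 176, and both Ltbp1 windows held CAGAC, 1 of them with TGACGTCA at 73. The Ltbp4 windows held no match. A match is a string of letters in this window and does not show a bound site.

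In PDA cells, the activin A subunit gene Inhba was the member whose response to TGFβ differed most between genotypes: it was 2.72-fold higher under TGFβ than under SB505124 in WT cells and 0.670 of the SB505124 level in KO cells. Fst, which encodes the antagonist of activin, fell under TGFβ in both genotypes and was higher in KO than in WT cells under either treatment. The activin B subunit gene Inhbb had no reads in any KO library and a low level in every WT library. Tgfb1 and Ltbp1 were lower in KO cells under both treatments. Values below are deposited normalized read counts, in which a library's reads are divided by 1 factor, and are given for replicate 1 and then replicate 2. A normalized count is not divided by gene length, so levels are compared between conditions and not between genes. In a bulk culture, fewer cells that express a gene and less RNA per cell cannot be told apart.

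Tgfb1, the most widely expressed of the TGFβ genes, had 991 and 725 in KO TGFβ and 1358 and 1361 in KO SB. It had 2144 and 2109 in WT TGFβ and 1954 and 2493 in WT SB. All 4 KO libraries lay below all 4 WT libraries, and the treatments separated in KO cells but overlapped in WT cells. The fitted change under TGFβ was −0.68 ± 0.16 in KO cells (log2 fold change ± SE, limma, adjusted p = 0.0129) and −0.05 ± 0.16 in WT cells (adjusted p = 0.822). The difference between these responses did not pass the threshold of 0.05 (−0.63 ± 0.23, adjusted p = 0.0871). It did with DESeq2 (−0.61, adjusted p = 0.0392), without WT SB replicate 2 (−0.80, adjusted p = 0.0299) and without KO TGFβ replicate 1 (−0.85, adjusted p = 0.0206). The change in KO cells stayed at −0.68 but lost its call without either KO SB library (adjusted p = 0.0685 and 0.0665), and leaving out a KO TGFβ library gave −0.91 or −0.46, both called. KO cells were lower than WT cells under TGFβ (−1.33 ± 0.16, adjusted p = 0.000435) and under SB505124 (−0.70 ± 0.16, adjusted p = 0.0074).

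Tgfb2 and Tgfb3, the other TGFβ ligand genes, had few reads in these cells. Tgfb2 had 31.7 and 44.6 in KO TGFβ, 30.2 and 29.4 in KO SB, 27.0 and 35.2 in WT TGFβ, and 56.9 and 46.5 in WT SB. WT SB was the highest group, by a narrow margin, and the other 3 groups lay close together. Under SB505124, Tgfb2 was lower in KO than in WT cells (−0.77 ± 0.24, adjusted p = 0.0287), but not past the threshold with DESeq2 (−0.80, adjusted p = 0.138), with no filter on low values (adjusted p = 0.0513) or without WT SB replicate 1 (−0.63, adjusted p = 0.121) or either KO SB library (adjusted p = 0.087 and 0.0984). Tgfb3 had 124 and 114 in KO TGFβ, against 72.4 and 88.1 in KO SB. It had 152 and 148 in WT TGFβ, against 96.4 and 88.5 in WT SB. TGFβ libraries lay above SB libraries in each genotype, with a change of 0.57 ± 0.15 in KO cells (adjusted p = 0.0199) and 0.70 ± 0.15 in WT cells (adjusted p = 0.00939). Both calls depended on single libraries. The KO call was lost with DESeq2 (adjusted p = 0.128), in a fit of only the groups compared (adjusted p = 0.0728), without KO SB replicate 1 (adjusted p = 0.119) and without KO TGFβ replicate 1 (adjusted p = 0.0843), and the WT call without either WT TGFβ library (adjusted p = 0.0727 and 0.0605).

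Inhba, whose product dimerizes into activin A, had 368 and 419 in KO TGFβ, against 579 and 596 in KO SB. It had 1143 and 1129 in WT TGFβ, against 421 and 415 in WT SB. The WT TGFβ libraries stood far above all others, and KO TGFβ lay about level with WT SB. Inhba fell by 0.58 ± 0.09 on the log2 scale under TGFβ in KO cells (adjusted p = 0.00226) and rose by 1.44 ± 0.09 in WT cells (adjusted p = 3.35e-05), a difference of −2.02 ± 0.13 (interaction, adjusted p = 0.000363). KO against WT therefore changed sign with treatment, at −1.53 ± 0.09 under TGFβ (adjusted p = 1.19e-05) and 0.49 ± 0.09 under SB505124 (adjusted p = 0.00289). The interaction ran from −2.11 to −1.93 when each library was left out in turn.

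Inhbb, whose product forms activin B, had 0 and 0 in KO TGFβ, 0 and 0 in KO SB, 13.1 and 11.1 in WT TGFβ, and 13.8 and 10.0 in WT SB. Its level was thus low in WT cells whichever treatment they received and undetected in KO cells. A count of 0 allows up to 3 reads over a group, which equals a value of 1.36 in KO TGFβ and 1.89 in KO SB. Against these floors, Inhbb was at least 8.89-fold lower in KO than in WT cells under TGFβ and at least 6.29-fold lower under SB505124. It passed the filter through its WT libraries alone, so that it had to differ between genotypes. The inhibin alpha gene Inha, which encodes the partner that turns a beta subunit into an inhibin, averaged 1.36 ± 0.639 in KO TGFβ and 36.1 ± 10.4 in WT TGFβ (SD, n = 2 each). Inha too passed the filter through its WT libraries alone and had to differ, so no test is given.

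Among the latency genes, Ltbp1, which encodes the LTBP that carries latent TGFβ to matrix in many tissues, had 8964 and 9438 in KO TGFβ and 12034 and 12083 in KO SB. It had 15824 and 16010 in WT TGFβ and 14699 and 13438 in WT SB. KO TGFβ was the lowest group and WT TGFβ the highest, with no overlap between any of the 4 groups. The change under TGFβ was −0.39 ± 0.07 in KO cells (adjusted p = 0.00296) and 0.18 ± 0.07 in WT cells (adjusted p = 0.0677), and the difference between them was −0.57 ± 0.09 (adjusted p = 0.00679; 0.0507 without WT TGFβ replicate 2). Under TGFβ, KO cells were lower than WT cells (−0.79 ± 0.07, adjusted p = 5.99e-05). The smaller difference under SB505124 (−0.22 ± 0.07, adjusted p = 0.0229) did not pass the threshold with DESeq2 (adjusted p = 0.0665), in a fit of only the groups compared (adjusted p = 0.0793) or without either KO SB library (adjusted p = 0.114 and 0.106), WT SB replicate 1 (adjusted p = 0.0818) or either WT TGFβ library (adjusted p = 0.0551 and 0.0552).

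Ltbp2 encodes the family member that does not bind latent TGFβ and associates with fibrillin fibres. Its level was 67.1 and 60.0 in KO TGFβ, 50.3 and 58.7 in KO SB, 47.5 and 53.7 in WT TGFβ, and 17.4 and 17.3 in WT SB. WT SB stood well below the other 3 groups. Ltbp2 rose under TGFβ in WT cells (1.49 ± 0.18, adjusted p = 0.000809), while in KO cells the change was 0.22 ± 0.18 (adjusted p = 0.386). The difference was −1.27 ± 0.26 (adjusted p = 0.0148) and was not past the threshold with DESeq2 (adjusted p = 0.0833) or without WT TGFβ replicate 1 (adjusted p = 0.059), WT TGFβ replicate 2 (adjusted p = 0.0777) or KO SB replicate 2 (adjusted p = 0.0594). Under SB505124 the KO level was higher by 1.59 ± 0.18 (adjusted p = 0.000262).

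Ltbp3 and Ltbp4 encode the LTBPs that partner latent TGFβ in secretion and in elastic tissue. Ltbp3 had 7869 and 5322 in KO TGFβ, 6428 and 7185 in KO SB, 12897 and 12105 in WT TGFβ, and 7129 and 10559 in WT SB. Ltbp4 had 1195 and 672 in KO TGFβ, 772 and 929 in KO SB, 2629 and 2530 in WT TGFβ, and 1099 and 1941 in WT SB. For both genes WT TGFβ was the highest group, and the libraries of KO TGFβ and of WT SB lay far apart within their groups. The wide pairs were shared: replicate 2 exceeded replicate 1 in WT SB by 0.57 for Ltbp3 and 0.82 for Ltbp4 on the log2 scale, and in KO TGFβ replicate 2 minus replicate 1 was −0.56 for Ltbp3 and −0.83 for Ltbp4. Tgfb1 showed the same signs, at 0.35 in WT SB and −0.45 in KO TGFβ. This opposition was not particular to these genes. Over the 13226 genes tested, the deviations of same-numbered libraries in WT SB and KO TGFβ had a correlation of −0.51. Under TGFβ, KO cells were lower than WT cells in Ltbp3 (−0.95 ± 0.22, adjusted p = 0.0107) and in Ltbp4 (−1.52 ± 0.32, adjusted p = 0.00656), and the Ltbp3 call was lost without WT TGFβ replicate 1 or 2 (adjusted p = 0.0702 and 0.0517). The response of neither gene to TGFβ passed the threshold in WT cells (Ltbp3 0.53 ± 0.22, adjusted p = 0.0976; Ltbp4 0.82 ± 0.32, adjusted p = 0.078), whereas without WT SB replicate 2 both did (Ltbp3 0.81, adjusted p = 0.0181; Ltbp4 1.23, adjusted p = 0.0153). Without WT SB replicate 1 the estimates were 0.24 for Ltbp3 and 0.41 for Ltbp4, neither called. DESeq2 also called the Ltbp3 response (adjusted p = 0.0216).

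Fst, the activin antagonist gene, had 2021 and 2202 in KO TGFβ, against 6553 and 6439 in KO SB. It had 602 and 554 in WT TGFβ, against 1494 and 1394 in WT SB. The 4 groups did not overlap, KO SB being the highest and WT TGFβ the lowest. TGFβ libraries were lower in KO cells (−1.62 ± 0.08, adjusted p = 9.42e-06) and in WT cells (−1.32 ± 0.08, adjusted p = 2.86e-05). The KO level was higher by 1.87 ± 0.08 under TGFβ (adjusted p = 2.51e-06) and by 2.17 ± 0.08 under SB505124 (adjusted p = 1.33e-06). The difference between the responses did not pass the threshold (−0.30 ± 0.11, adjusted p = 0.0975).

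**Figure D1:**
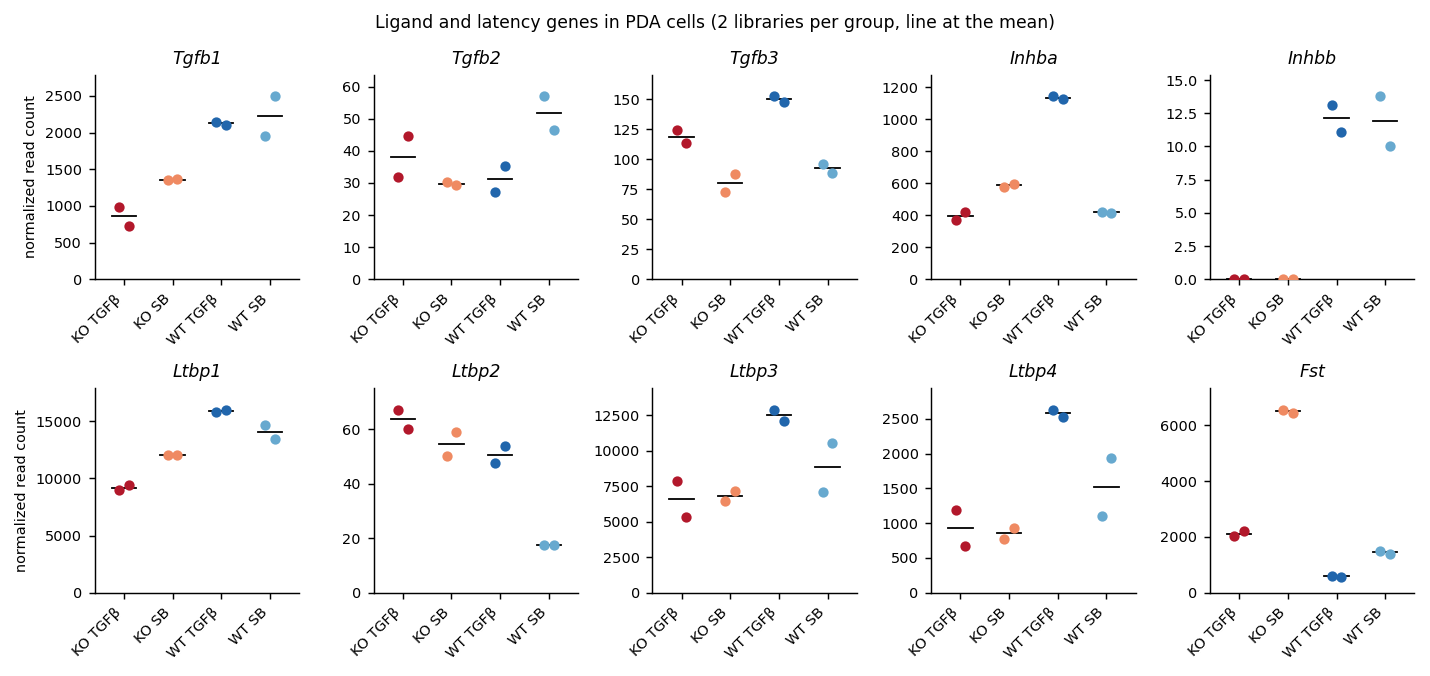
Deposited normalized read count (vertical axes, each from 0) of each gene in the 8 PDA libraries. Points are libraries, horizontal lines are group means (n = 2), and the groups are KO TGFβ, KO SB, WT TGFβ and WT SB; Inhba is highest in the WT TGFβ libraries at 1143 and 1129, Fst is highest in the KO SB libraries at 6553 and 6439, and Inhbb is at 0 in all KO libraries.

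Counted over the 10 genes, 5 changed under TGFβ in KO cells (1 higher and 4 lower), where 38.7% of the 13226 genes tested were called (20.6% higher and 18% lower). In WT cells 4 changed (3 higher and 1 lower), against 36.9% of all genes (19.4% higher and 17.6% lower). The interaction was called for 3, all lower in KO, against 21.8% of all genes (9.71% higher and 12.1% lower). KO against WT was called for 7 under TGFβ (1 higher and 6 lower), against 40.2% of all genes (21.2% higher and 19% lower). Under SB505124 it was also called for 7 (3 higher and 4 lower), against 56.2% (28.9% higher and 27.2% lower). Both counts of lower genes include Inhbb, which had to differ. The share of members called was thus close to the background in both responses and in the interaction. Under TGFβ the median log2 difference between KO and WT cells was −0.87 over the members and −0.02 over all genes, and under SB505124 it was −0.28 against −0.00. These comparisons share libraries and are not independent of each other. The summed level of 8 fibroblast markers, of which 7 were listed, moved with treatment: 410 to 426 in KO TGFβ and 130 to 135 in KO SB, and 389 to 434 in WT TGFβ and 73.9 to 94.5 in WT SB. It was made up mainly of Col1a1 and Pdgfra, while Pdgfrb, Col1a2, Thy1 and Dcn averaged at most 1.38 in every PDA group. Col3a1 averaged 9.53 to 21.6 over the PDA groups. In WT SB it was about level with Col1a1, at 21.1 against 20.6. The part of such cells in the results was not tested.

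Markers also differed between the genotypes of the PDA cells. The 6 endoderm markers summed to 9270 to 9982 in KO TGFβ and 5158 to 5279 in WT TGFβ, and to 16697 to 17757 in KO SB and 8278 to 8549 in WT SB. Within that sum Sox17 averaged 1144 in KO TGFβ and 92.0 in WT TGFβ. Under SB505124 it averaged 6265 in KO SB and 805 in WT SB. Not every marker of the list was higher in KO cells. Afp averaged 2172 in KO SB and 2630 in WT SB, but 2233 in KO TGFβ and 1569 in WT TGFβ. Sox7 averaged 0.908 in KO TGFβ and 24.0 in WT TGFβ. The 4 endothelial markers summed to 932 to 1008 in KO TGFβ and 56.5 to 60.7 in WT TGFβ, and to 1331 to 1364 in KO SB and 45.9 to 52.0 in WT SB. Cdh5 made up nearly all of this, while Pecam1, Kdr and Tek averaged at most 7.26 in every PDA group. Eomes, of the primitive streak list, averaged 14.1 in KO TGFβ and 132 in WT TGFβ; under SB505124 it averaged 16.4 in KO SB and 192 in WT SB, with T and Mixl1 at or near 0. The part of these differences in the comparisons of KO with WT cells was not tested.

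In the E14 series, WT cells at day 4 had higher Tgfb1, Tgfb2 and Fst than at day 0, while KO cells at day 4 had lower Tgfb1 and Tgfb2 than at day 0 and no called change of Fst. Inhbb fell steeply with differentiation in both genotypes, and Ltbp4 fell as well. Ltbp3 rose in KO cells, to 4.78-fold its day 0 level, and differed little between days in WT cells. The groups also differed in marker genes. The summed level of the 5 primitive streak and mesoderm markers was 733 to 745 in KO day 4, 158 to 165 in KO day 0, 3677 to 6501 in WT day 4 and 115 to 137 in WT day 0. Eomes made up most of the KO sums, averaging 706 in KO day 4 and 132 in KO day 0. T, Mixl1, Mesp1 and Gsc averaged at most 18.5 in either KO group. For the 6 endoderm markers the summed level was 181 to 209 in KO day 4, 394 to 396 in KO day 0, 4000 to 4358 in WT day 4 and 171 to 214 in WT day 0. The 8 fibroblast markers summed to 622 to 834 in KO day 4, 519 to 687 in KO day 0, 3682 to 4907 in WT day 4 and 645 to 659 in WT day 0, with group means of at most 1.44 for Lum and 11.3 for Dcn. The 5 pluripotency markers summed to 61166 to 62313 in KO day 4, 102627 to 106989 in KO day 0, 31006 to 31504 in WT day 4 and 95796 to 96952 in WT day 0. Single markers departed from these sums. Pou5f1 averaged 25159 in KO day 4 and 21090 in KO day 0, and Nanog averaged 5012 in KO day 4 and 6455 in WT day 4. The part of these cell populations in the differences below was not tested.

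Tgfb1 had 57.7 and 54.2 in KO day 4, against 93.3 and 98.5 in KO day 0. It had 473 and 628 in WT day 4, against 191 and 203 in WT day 0. The 4 groups did not overlap, and day 4 lay below day 0 in KO cells and above it in WT cells. The change over 4 days was −0.77 ± 0.16 in KO cells (log2 ± SE, limma, adjusted p = 0.000879) and 1.46 ± 0.16 in WT cells (adjusted p = 2.23e-06), differing by −2.23 ± 0.23 (adjusted p = 1.95e-06). At day 4, KO cells were at 0.102 of the WT mean (−3.26 ± 0.16, adjusted p = 6.94e-10), and at day 0 they were lower as well (−1.03 ± 0.16, adjusted p = 5.36e-05).

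Tgfb2, a ligand gene prominent in embryonic mesenchyme and heart, had 15.8 and 39.4 in KO day 4, against 140 and 135 in KO day 0. It had 408 and 700 in WT day 4, against 47.6 and 40.0 in WT day 0. The order of the groups reversed with time: KO lay above WT at day 0 and far below WT at day 4. The change was −2.41 ± 0.33 in KO cells (adjusted p = 2.2e-05) and 3.59 ± 0.33 in WT cells (adjusted p = 3.54e-07), and the difference of −5.99 ± 0.46 (adjusted p = 1.48e-07) was the largest in size among the members. KO against WT was −4.36 ± 0.33 at day 4 (adjusted p = 5.67e-08) and 1.63 ± 0.33 at day 0 (adjusted p = 0.000521).

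Tgfb3 was low, with 4.53 and 5.91 in KO day 4, 23.8 and 33.5 in KO day 0, 31.7 and 12.1 in WT day 4, and 8.93 and 14.5 in WT day 0. KO day 4 was the lowest group, and the days overlapped in WT cells. The change was −2.24 ± 0.45 in KO cells (adjusted p = 0.000667) and 0.74 ± 0.45 in WT cells (adjusted p = 0.169), differing by −2.98 ± 0.64 (adjusted p = 0.00129). Without WT day 4 replicate 2 the WT change passed the threshold (1.40, adjusted p = 0.0265). KO cells were lower at day 4 (−1.75 ± 0.45, adjusted p = 0.00443; 0.093 without WT day 4 replicate 1). They were higher at day 0 (1.23 ± 0.45, adjusted p = 0.0263), a call lost with DESeq2 (adjusted p = 0.0814), with no filter on low values (adjusted p = 0.0526) and without WT day 0 replicate 1 or KO day 0 replicate 2 (adjusted p = 0.173 and 0.159).

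Inhbb, the activin B subunit gene, changed steeply in E14 cells. It had 89.4 and 81.8 in KO day 4, against 1451 and 1635 in KO day 0. It had 25.9 and 34.5 in WT day 4, against 1169 and 1123 in WT day 0. Day 0 stood far above day 4 in both genotypes, and KO lay above WT on each day. Inhbb fell by 4.16 ± 0.14 on the log2 scale in KO cells (adjusted p = 2.07e-11) and by 5.21 ± 0.14 in WT cells (adjusted p = 2.19e-12), a difference of 1.06 ± 0.20 (adjusted p = 0.000492). At day 4 the KO mean was 2.83-fold the WT mean (1.48 ± 0.14, adjusted p = 6.77e-07). The difference at day 0 was 0.43 ± 0.14 (adjusted p = 0.0158), and it was not called with quantile scaling (adjusted p = 0.0579) or without WT day 0 replicate 1 or 2 or KO day 0 replicate 2 (adjusted p = 0.0609, 0.0985 and 0.137).

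Inhba had few reads in E14 cells, with 6.79 and 8.87 in KO day 4, 30.5 and 15.3 in KO day 0, 2.88 and 3.73 in WT day 4, and 2.98 and 2.42 in WT day 0. KO day 0 was the only group above 10, and Inhba passed the filter through that group, so that it had to differ there. The fitted difference between KO and WT cells at day 0 was 2.62 ± 0.49. For day 4 the estimate was 1.03 ± 0.49 (adjusted p = 0.0843). The fitted change with time in KO cells was −1.37 ± 0.49. It starts from KO day 0 and so had to be a fall, and no test is given.

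Of the latency genes, Ltbp1 had 807 and 692 in KO day 4, 422 and 400 in KO day 0, 803 and 693 in WT day 4, and 650 and 641 in WT day 0. The genotypes were level at day 4, and KO lay below WT at day 0 (−0.65 ± 0.10, adjusted p = 6.3e-05). Ltbp1 rose with time in KO cells (0.86 ± 0.10, adjusted p = 6.05e-06), and the change was 0.21 ± 0.10 in WT cells (adjusted p = 0.0895; 0.0422 without WT day 4 replicate 2). The difference between the changes was 0.65 ± 0.15 (adjusted p = 0.00165).

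Ltbp3 had 665 and 430 in KO day 4, against 123 and 106 in KO day 0. It had 181 and 151 in WT day 4, against 171 and 162 in WT day 0. KO day 4 stood above the other 3 groups, although its libraries differed by −0.63 on the log2 scale. The change was 2.22 ± 0.18 in KO cells (adjusted p = 1.58e-07) and −0.01 ± 0.18 in WT cells (adjusted p = 0.965), and it differed by 2.23 ± 0.26 (adjusted p = 6.99e-06). KO against WT was 1.69 ± 0.18 at day 4 (adjusted p = 2.47e-06). At day 0 it was −0.54 ± 0.18 (adjusted p = 0.018), which was not past the threshold with quantile scaling (adjusted p = 0.101) or without WT day 0 replicate 1 or 2 or KO day 0 replicate 2 (adjusted p = 0.084, 0.0525 and 0.115).

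Ltbp4 had 3151 and 3165 in KO day 4, against 9230 and 8180 in KO day 0. It had 1575 and 1397 in WT day 4, against 5673 and 5590 in WT day 0. KO lay above WT on both days and day 4 below day 0 in both genotypes. The change was −1.46 ± 0.08 in KO cells (adjusted p = 1.26e-09) and −1.92 ± 0.08 in WT cells (adjusted p = 6.14e-11), a difference of 0.46 ± 0.11 (adjusted p = 0.00217). KO exceeded WT by 1.09 ± 0.08 at day 4 (adjusted p = 2.45e-08) and by 0.63 ± 0.08 at day 0 (adjusted p = 5.08e-06).

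Ltbp2 had 29.4 and 45.3 in KO day 4, 144 and 106 in KO day 0, 31.7 and 20.5 in WT day 4, and 39.7 and 58.1 in WT day 0. KO day 0 was the highest group, and the genotypes overlapped at day 4. Ltbp2 fell with time in KO cells (−1.73 ± 0.30, adjusted p = 0.00018) and in WT cells (−0.89 ± 0.30, adjusted p = 0.0184), the WT call being lost without WT day 0 replicate 2 (adjusted p = 0.175) or WT day 4 replicate 2 (adjusted p = 0.163). At day 0 KO exceeded WT by 1.35 ± 0.30 (adjusted p = 0.00114). The difference between the changes was −0.85 ± 0.42 (adjusted p = 0.103), and it passed the threshold without WT day 4 replicate 2 or KO day 4 replicate 2 (adjusted p = 0.0443 and 0.0449).

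Fst had 132 and 221 in KO day 4, against 197 and 196 in KO day 0. It had 657 and 905 in WT day 4, against 33.7 and 29.1 in WT day 0. In WT cells day 4 stood far above day 0, and in KO cells the days overlapped. The change was −0.20 ± 0.21 in KO cells (adjusted p = 0.443; −0.57 with adjusted p = 0.0313 without KO day 4 replicate 2) and 4.58 ± 0.21 in WT cells (adjusted p = 3.42e-10), a difference of −4.78 ± 0.30 (adjusted p = 2.03e-08). KO against WT was −2.17 ± 0.21 at day 4 (adjusted p = 9.62e-07) and 2.61 ± 0.21 at day 0 (adjusted p = 1.03e-07).

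**Figure D2:**
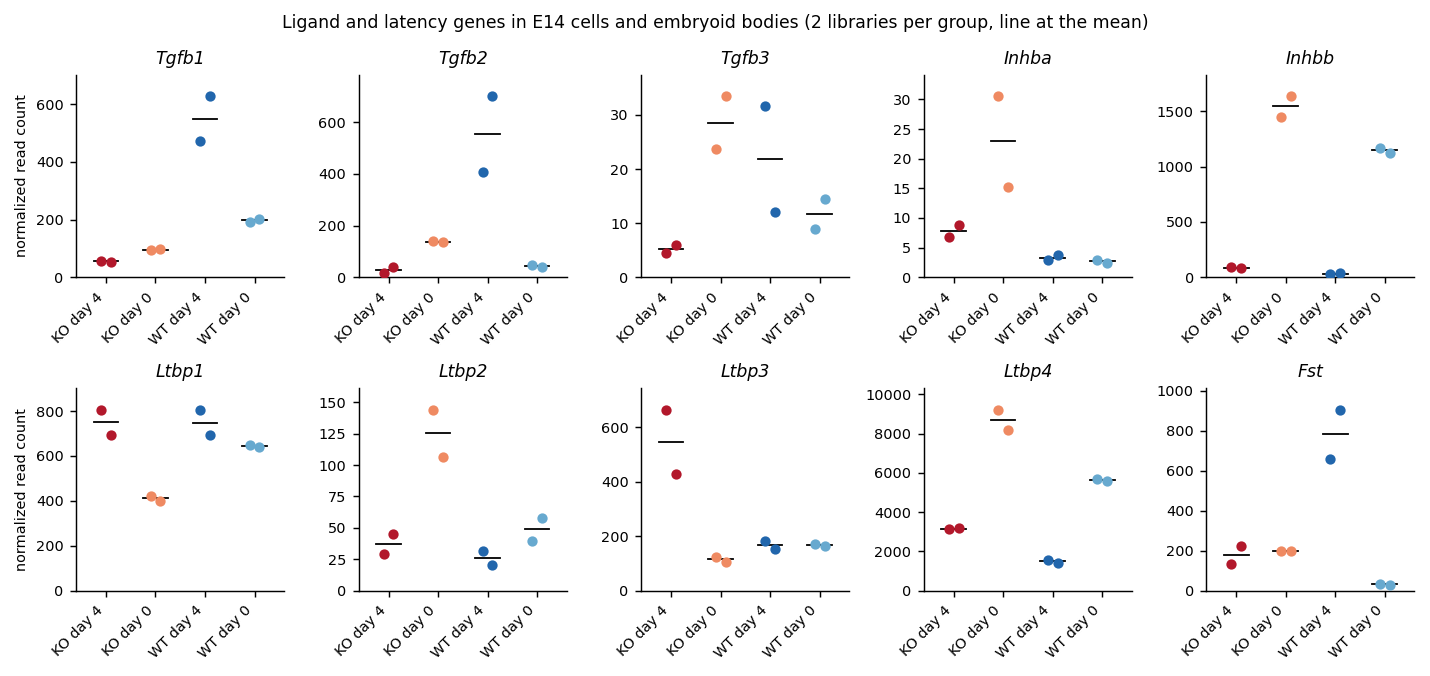
Deposited normalized read count (vertical axes, each from 0) of each gene in the 8 E14 libraries. Points are libraries, horizontal lines are group means (n = 2), and the groups are KO day 4, KO day 0, WT day 4 and WT day 0; Tgfb1, Tgfb2 and Fst are highest in the WT day 4 libraries, and Inhbb and Ltbp4 are higher at day 0 than at day 4 in both genotypes.

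Over the 10 genes, 9 changed between day 4 and day 0 in KO cells (2 higher and 7 lower), where 60% of the 15227 genes tested were called (29.1% higher and 30.9% lower). In WT cells 6 changed (3 higher and 3 lower), against 63.1% of all genes (32.3% higher and 30.8% lower). The interaction was called for 8 (4 higher and 4 lower), against 55.7% (27.1% higher and 28.6% lower). KO against WT was called for 7 at day 4 (3 higher and 4 lower), against 56.2% (27.8% higher and 28.4% lower), and for all 10 at day 0 (7 higher and 3 lower), against 67.2% (33.9% higher and 33.3% lower). The count at day 0 and the lower ones over time in KO cells include Inhba, which had to differ. Most genes of the table were called in each of these comparisons, so a call is no mark of the members. Leaving out KO day 0 replicate 2 gave the lowest count at day 0 among the 8 fits that left out a library. Inhba no longer passed the filter in that fit and was not tested. The median log2 change was −1.42 over the members and −0.02 over all genes in KO cells, and 0.21 over the members and −0.00 over all genes in WT cells.

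**Figure D3:**
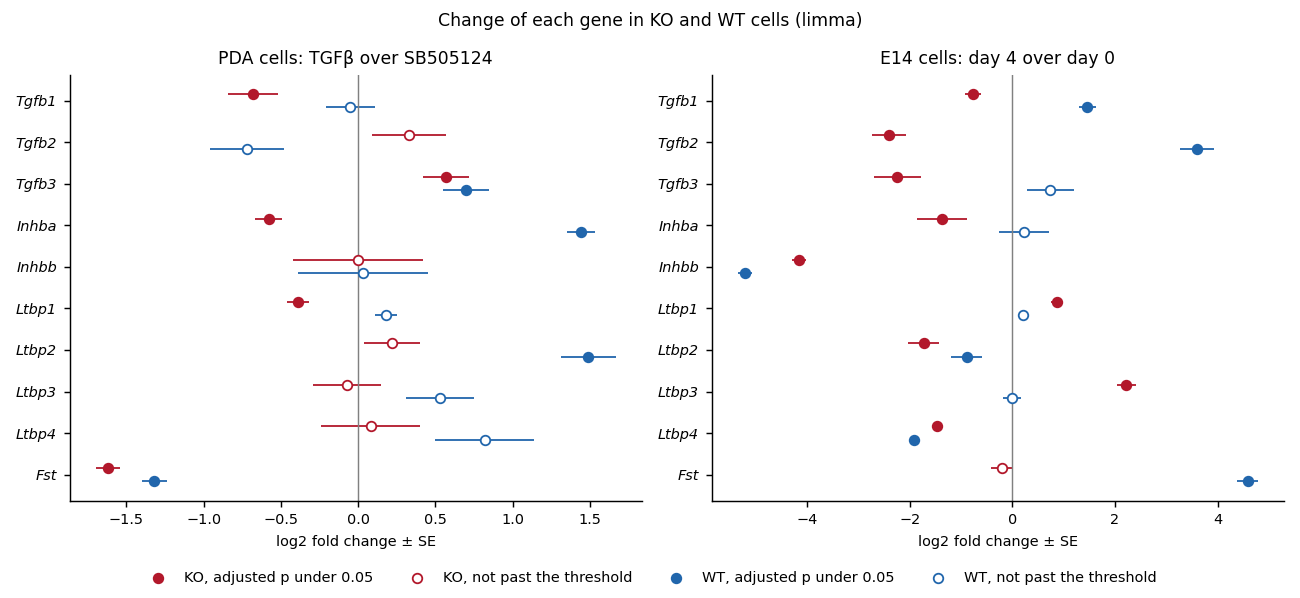
Log2 fold change of each gene from limma (horizontal axes, bars are SE) in KO cells (red, upper of each pair) and WT cells (blue, lower), with PDA cells under TGFβ over SB505124 on the left and E14 cells at day 4 over day 0 on the right. Filled points passed an adjusted p of 0.05 and open points did not; Inhba lies on opposite sides of 0 in the genotypes on the left (−0.58 in KO and 1.44 in WT), as do Tgfb1 (−0.77 and 1.46) and Tgfb2 (−2.41 and 3.59) on the right.

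In the organoids, the 2 members that passed 2-fold under TGFβ were Fst and Ltbp2, which were higher than under SB505124 both with and without dox. Inhba was lower under TGFβ in both settings, within 2-fold. With dox, Tgfb2, Inhbb and Ltbp2 were lower and Inhba was higher than without dox under either treatment. Each condition is 1 library, so these differences have no replicate check, and the 95% intervals are exact counting intervals that cover counting error only.

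Fst had 1351 with dox under TGFβ and 243 with dox under SB505124, a 5.57-fold ratio (4.93 to 6.32). Without dox it had 1673 under TGFβ and 330 under SB505124, a 5.07-fold ratio (4.53 to 5.68). Both TGFβ libraries were above both SB505124 libraries. In PDA cells, by contrast in direction, Fst was lower under TGFβ in each genotype; the tables were normalized separately, and the difference between the systems was not tested. Ltbp2 had 167 with dox under TGFβ and 32.7 with dox under SB505124 (5.12-fold, 3.63 to 7.34), and without dox 765 under TGFβ and 82.1 under SB505124 (9.32-fold, 7.52 to 11.7). The TGFβ level with dox was 0.219 of that without dox (0.182 to 0.262).

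Inhba had 479 with dox under TGFβ and 708 with dox under SB505124, a ratio of 0.676 (0.601 to 0.759). Without dox it had 170 under TGFβ and 335 under SB505124, a ratio of 0.508 (0.420 to 0.612). Both libraries with dox were above both without dox, at 2.81-fold under TGFβ (2.34 to 3.39) and 2.11-fold under SB505124 (1.88 to 2.38). Inhbb ran the other way across dox, with 1467 under TGFβ and 1167 under SB505124 with dox, and 3424 under TGFβ and 4046 under SB505124 without dox. The ratio with over without dox was 0.428 under TGFβ (0.401 to 0.457) and 0.289 under SB505124 (0.272 to 0.306).

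Tgfb2 had 446 under TGFβ and 352 under SB505124 with dox, and 1321 under TGFβ and 1787 under SB505124 without dox. With over without dox it stood at 0.338 under TGFβ (0.301 to 0.378) and 0.197 under SB505124 (0.178 to 0.218). Tgfb3 had 3796 under TGFβ and 3434 under SB505124 with dox, and 5607 under TGFβ and 5722 under SB505124 without dox, and stayed within 2-fold throughout. Tgfb1 had 894 under TGFβ and 530 under SB505124 with dox, and 747 under TGFβ and 535 under SB505124 without dox, so that dox made little difference under SB505124 (0.992-fold, 0.890 to 1.11).

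The remaining latency genes stayed within 2-fold in each organoid comparison. Ltbp1 was near that limit under TGFβ, with 909 under TGFβ against 472 under SB505124 with dox (1.92-fold, 1.73 to 2.14) and 1698 under TGFβ against 879 under SB505124 without dox (1.93-fold, 1.78 to 2.09). Ltbp3 had 6099 under TGFβ and 4048 under SB505124 with dox, and 11949 under TGFβ and 6635 under SB505124 without dox, so its ratio with over without dox under TGFβ was 0.510 (0.494 to 0.527). Ltbp4 had 205 under TGFβ and 234 under SB505124 with dox, and 397 under TGFβ and 336 under SB505124 without dox, and its intervals for TGFβ against SB505124 were 0.724 to 1.05 with dox and 1.02 to 1.37 without.

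**Figure D4:**
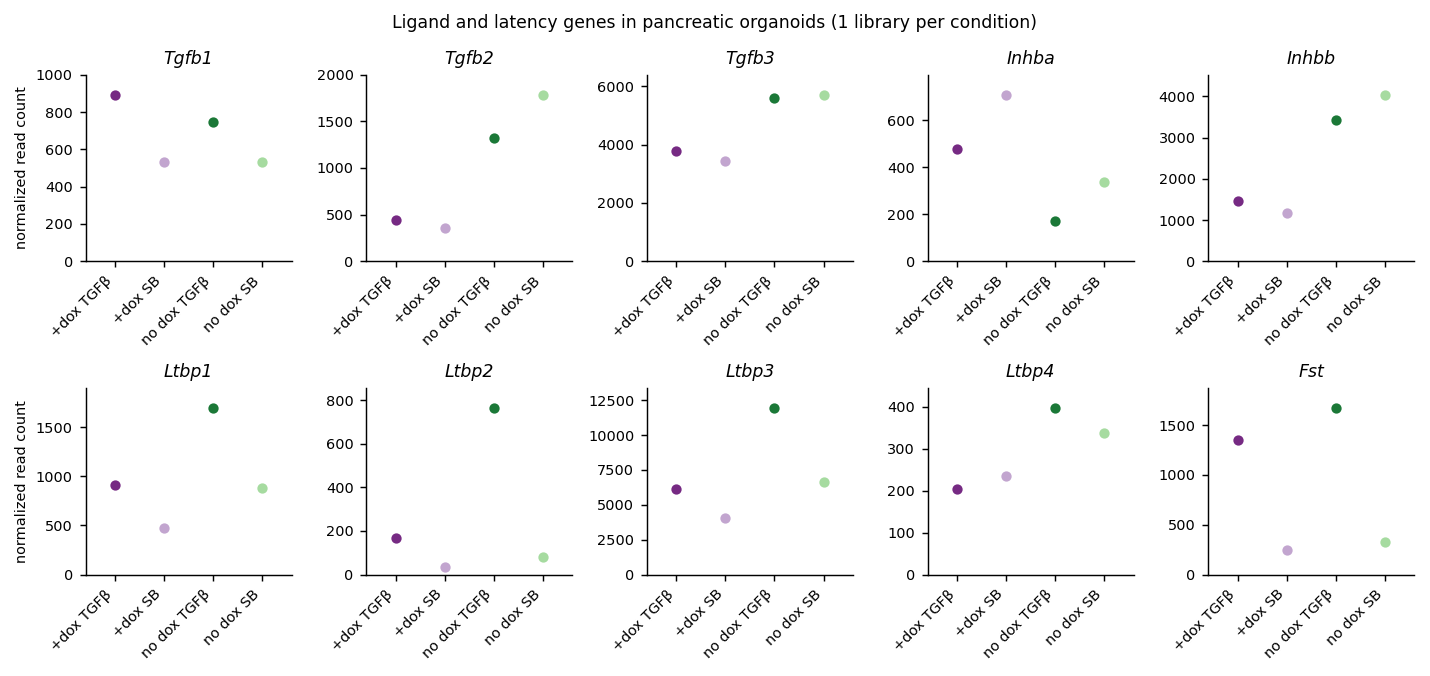
Deposited normalized read count (vertical axes, each from 0) of each gene in the 4 organoid libraries, in the order with dox under TGFβ, with dox under SB505124, without dox under TGFβ and without dox under SB505124. Each point is 1 library, so there is no error bar; Fst and Ltbp2 are higher under TGFβ in both dox settings, and Tgfb2 and Inhbb are lower with dox under both treatments.

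Past 2-fold, 2 of the 10 members were higher and none lower under TGFβ with dox, where 6.75% of the 13443 genes that passed the filter lay past 2-fold (3.52% higher and 3.24% lower). The same count was found without dox, where 6.41% did (3.56% higher and 2.85% lower). With against without dox, 1 member was higher and 3 were lower under TGFβ, where 17.4% of all genes lay past 2-fold (7.84% higher and 9.6% lower), and under SB505124, where 17.5% did (7.93% higher and 9.57% lower). The median log2 ratio of the members with over without dox was −0.93 under TGFβ and −0.72 under SB505124, against −0.01 and 0.00 over all genes. Fibroblast markers summed to at most 63.1 in any organoid library.

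Levels were also set side by side as reads per M, which are comparable between tables only roughly because each table lists other genes. Only Tgfb3 separated all systems, and each other member overlapped between at least 1 pair of systems. Tgfb3 had a median of 169 reads per M in organoids, 2.80 in PDA cells and 0.565 in the E14 series, and its ranges (129 to 201, 1.76 to 4.26 and 0.184 to 1.38) did not overlap. Ltbp1 was highest in PDA cells (median 331, range 236 to 447), while its ranges in organoids (17.7 to 60.1) and the E14 series (15.8 to 35.0) overlapped. Ltbp4 was highest in the E14 series by median (180), and its lowest E14 library (60.6) lay below the highest PDA library (73.5). Ltbp3 overlapped between organoids (152 to 423) and PDA cells (140 to 361) and was lower in every E14 library (4.20 to 27.0). For Inhbb the organoid range of 43.8 to 142 overlapped the E14 range of 1.13 to 64.6 and lay above the PDA range of 0 to 0.373. For Inhba the organoid range of 6.02 to 26.6 overlapped the PDA range of 9.70 to 31.9, and the E14 range was 0.101 to 1.24. Tgfb1, Tgfb2, Ltbp2 and Fst had ranges that overlapped between organoids and at least 1 other system.

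The proteins around these ligands were followed in lists that exclude the members. Of 23 genes for latent TGFβ docking and activation, 17 were tested in PDA cells, of which 7 rose and 1 fell under TGFβ in KO cells and 10 rose and none fell in WT cells (median log2 change of the list 0.28 in KO and 0.40 in WT, against 0.02 and 0.00 over all genes, of which 38.7% and 36.9% were called). Itgb6, encoding the beta chain of an integrin that frees TGFβ from its latent complex, averaged 674 ± 32.3 in KO TGFβ and 221 ± 14.2 in KO SB, and 929 ± 2.30 in WT TGFβ and 288 ± 59.5 in WT SB (SD, n = 2 each). It rose in both genotypes (1.60 ± 0.14, adjusted p = 0.000144, in KO; 1.70 ± 0.14, adjusted p = 0.00012, in WT). The interaction was called for 2 of the 17 with a higher and 3 with a lower response in KO cells, against 21.8% of all genes. The integrin genes Itgb3 and Itgav had a lower one (both −0.72, interaction adjusted p = 0.00425 and 0.00773), and Plau a higher one (0.52 ± 0.14, interaction adjusted p = 0.039). Under SB505124 Itgb3 already averaged 2563 ± 36.2 in KO SB and 1018 ± 52.4 in WT SB. In E14 cells at day 4, none of the 21 genes tested was higher and 16 were lower in KO than in WT (median −1.13 against −0.01 over all genes, of which 56.2% were called). At day 0 the same list had 9 higher and 7 lower (median 0.11 against −0.00, with 67.2% of all genes called). Thbs1, which encodes the latent TGFβ activator thrombospondin, averaged 155 ± 6.47 in KO day 4 and 1259 ± 319 in WT day 4 (−2.99 ± 0.15, adjusted p = 6.94e-10). The order was the opposite at day 0, with 2071 ± 241 in KO day 0 and 695 ± 105 in WT day 0 (1.58 ± 0.15, adjusted p = 3.67e-07). Furin, encoding a convertase that cleaves the TGFβ propeptide, averaged 1020 ± 78.6 in KO day 4 and 1983 ± 102 in WT day 4 (−0.96 ± 0.08, adjusted p = 1.78e-07).

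The fibrillin and elastic fibre list holds the matrix to which LTBPs bind. In E14 cells at day 4, 1 of its 15 genes was higher and 11 were lower in KO than in WT (median −0.92 against −0.01). Of all genes, 56.2% were called there (27.8% higher and 28.4% lower). At day 0, 7 of the 15 were higher and 6 lower (median −0.10 against −0.00). There 67.2% of all genes were called (33.9% higher and 33.3% lower). Fbn2, a fibrillin gene of the embryo, averaged 26.8 ± 10.1 in KO day 4 and 966 ± 289 in WT day 4 (−5.13 ± 0.25, adjusted p = 7.6e-10), and Fbn1 averaged 158 ± 19.6 in KO day 4 and 411 ± 161 in WT day 4 (−1.32 ± 0.21, adjusted p = 8.28e-05). At day 0 Fbn1 was instead higher in KO cells, at 392 ± 48.4 in KO day 0 and 113 ± 7.26 in WT day 0 (1.78 ± 0.21, adjusted p = 3.3e-06). Fbln5, encoding an elastic fibre assembly protein, was the gene that ran the other way, at 91.2 ± 20.2 in KO day 4 and 1.41 ± 0.639 in WT day 4 (3 reads over the WT libraries). It passed the filter through its KO libraries alone and had to differ, so no test is given. The counts of higher genes on both days include it. In PDA cells 7 genes of the list were tested, of which 3 rose and 1 fell under TGFβ in KO cells and 2 rose and none fell in WT cells (median 0.29 in KO and 0.33 in WT, against 0.02 and 0.00 over all genes, with 38.7% and 36.9% of all genes called). In organoids, 5 of the 10 that passed the filter were past 2-fold higher under TGFβ with dox and 6 without, and none was past 2-fold lower. Over all genes 6.75% lay past 2-fold with dox and 6.41% without.

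Of the other activin and inhibin genes, 9 were tested in PDA cells, where 1 rose and 1 fell under TGFβ in KO cells and 4 rose and none fell in WT cells (median 0.23 in KO and 0.69 in WT, against 0.02 and 0.00; 38.7% and 36.9% of all genes were called). Fstl3, which encodes a follistatin-like antagonist of activin, averaged 29.0 ± 15.3 in KO TGFβ and 13.6 ± 3.59 in KO SB (0.97 ± 0.44, adjusted p = 0.12). It averaged 236 ± 30.1 in WT TGFβ and 30.2 ± 14.1 in WT SB (3.00 ± 0.44, adjusted p = 0.0017). The difference between these responses missed the threshold (−2.03 ± 0.62, adjusted p = 0.0525). Fstl3 thus ran opposite to Fst in WT cells. Acvr1b, encoding an activin type I receptor, fell under TGFβ in KO cells (−0.60 ± 0.09, adjusted p = 0.0015) and rose in WT cells (0.40 ± 0.09, adjusted p = 0.00951), and this difference passed the threshold (interaction adjusted p = 0.00259). In E14 cells, Inhbe, which encodes a further inhibin beta subunit, averaged 220 ± 42.6 in KO day 4 and 1.43 ± 0.700 in WT day 4 (adjusted p = 3.71e-10, with no fold given for 3 reads over the WT libraries). It averaged 397 ± 12.8 in KO day 0 and 16.3 ± 6.14 in WT day 0 (4.58 ± 0.30, adjusted p = 1.11e-08). Tgfbr3, encoding betaglycan, a co-receptor for TGFβ and inhibin, averaged 123 ± 32.1 in KO day 4 and 530 ± 6.60 in WT day 4 (−2.12 ± 0.20, adjusted p = 5.6e-07).

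The SMAD target list holds feedback and response genes of the pathway. Of its 14 genes, 10 rose and 2 fell under TGFβ in KO cells and 12 rose and 1 fell in WT cells (median 1.64 in KO and 1.95 in WT, against 0.02 and 0.00 over all genes). In these comparisons 38.7% of all genes were called in KO cells and 36.9% in WT cells. Klf10, an early TGFβ-inducible transcription factor gene, rose by 2.40 ± 0.07 in KO cells (adjusted p = 1.43e-06) and by 2.42 ± 0.07 in WT cells (adjusted p = 1.46e-06). In organoids 7 of the 14 were past 2-fold higher under TGFβ with dox and 7 without, and none lower. Over all genes 6.75% lay past 2-fold with dox and 6.41% without.

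For each member, the genes of most similar pattern were taken by Pearson correlation of log2 values over the 16 PDA and E14 libraries, centred within each table, among 10285 genes; these are descriptions over libraries that share groups. The nearest genes were Col5a1 for Tgfb1 (r = 0.949), Snx19 for Tgfb2 (0.944), Thbs1 for Tgfb3 (0.921), Rnf111 for Inhba (0.935), Zmym1 for Inhbb (0.958), Lamb1 for Ltbp1 (0.936), Wwc1 for Ltbp2 (0.926), Pank4 for Ltbp3 (0.961), BC030867 for Ltbp4 (0.979) and Dnajc10 for Fst (0.959). Thbs1 is also on the latent TGFβ activation list above.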

How the data were processed

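RNA-seq libraries from organoids (4), PDA cells (8) and E14 cells (8) were analysed; the 16 ChIP-seq and ATAC-seq samples were not analysed here. The deposited signal is a normalized read count, with 1 table per system that the authors normalized by itself. Tools in the submitters' processing notes are DESeq2 3.4, HTSeq 0.6.1p1, Bowtie2, HOMER and FastQC 0.11.5, with the mm10 build and no stated roles; per the labels' protocols, libraries came from the TruSeq RNA Sample Prep Kit v2. Each library's values were whole multiples of 1 step (100% of values, tolerance 0.001 reads), so reads and depth could be recovered.

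Genes were tested where 2 or more of the 8 libraries reached a value of 10 (organoids: a mean of 10). For PDA and E14, limma 3.58.1 (R 4.3.3) with the trend option was fitted on log2(value + 1) over the 8 libraries of a table in 4 groups, without a replicate term; fold changes on this scale understate those of low genes. P-values are two-sided, adjusted by Benjamini-Hochberg over all genes tested, and called under 0.05. Organoid ratios have exact 95% counting intervals and no test; past 2-fold means a log2 ratio of at least 1 in size. The floor for a gene at 0 is 3 reads over the group. The fit was tested on simulated data. Alternatives were pseudocounts of 0.5 and 5, no filter, quantile and equal-total scaling, edgeR 4.0.16 and DESeq2 1.42.0 on recovered reads, a replicate block, only the groups compared, and leaving out each library. The members, the pathway and marker lists and the rules were chosen with earlier results of these data known. All 10 members are given in every table; from each pathway list at most 4 genes per comparison could be named, those with the smallest adjusted p, and of the 2 genes most like each member the first is named. Levels per gene length were not computed. Positions and promoter windows are from RefSeq (GRCm38.p6).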

Additional observations from a re-analysis of the deposited data

Results flagged for a closer look

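In PDA cells, 3 members responded to TGFβ differently in KO and WT cells by the interaction test of limma. These were Inhba (KO minus WT response −2.02 on the log2 scale, adjusted p = 0.000363), Ltbp1 (−0.57, adjusted p = 0.00679) and Ltbp2 (−1.27, adjusted p = 0.0148).

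In E14 cells, 8 members changed between day 4 and day 0 differently in KO and WT cells. Tgfb1 (−2.23, adjusted p = 1.95e-06), Tgfb2 (−5.99, adjusted p = 1.48e-07), Tgfb3 (−2.98, adjusted p = 0.00129) and Fst (−4.78, adjusted p = 2.03e-08) had a lower change in KO cells. Inhbb (1.06, adjusted p = 0.000492), Ltbp1 (0.65, adjusted p = 0.00165), Ltbp3 (2.23, adjusted p = 6.99e-06) and Ltbp4 (0.46, adjusted p = 0.00217) had a higher one.

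In organoids, 4 members moved in opposite directions under TGFβ with dox and without dox, with 1 library per condition. The response with dox minus that without was 0.78 for Tgfb2, 0.17 for Tgfb3, 0.57 for Inhbb and −0.43 for Ltbp4 on the log2 scale. The ratio of TGFβ to SB505124 had an interval that includes 1 for Tgfb3 without dox (0.98, 0.945 to 1.02) and for Ltbp4 with dox (0.874, 0.724 to 1.05), so 1 of their directions lies within counting error. These organoid differences were not tested.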

How the results depend on the processing

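Over the single-gene results, 1670 alternative values were computed, of which 1572 kept direction and side of the threshold, 45 lost and 36 gained the call and 17 changed sign; none that changed sign was called under the main settings. When each library was left out in turn, the number of the 10 members called ran from 3 to 5 for TGFβ in PDA KO cells, 3 to 7 in PDA WT cells, 1 to 5 for the PDA interaction, 6 to 7 for KO against WT under TGFβ and 5 to 8 under SB505124. It ran from 8 to 10 for day 4 against day 0 in KO cells, 5 to 7 in WT cells, 8 to 9 for the E14 interaction, 6 to 7 for KO against WT at day 4 and 6 to 10 at day 0. Over all genes, calls fell by over 1.5 times where a PDA WT TGFβ or KO SB library was left out: to 2944 or 3130, against 5113, for TGFβ in KO cells, 2244 or 2277, against 4887, in WT cells, 3169 or 3236, against 5316, for KO against WT under TGFβ, and 781, 842, 968 or 1188, against 2886, for the interaction. Replicate numbers did not mark pairs (correlations of same-numbered deviations −0.51 to 0.14 in PDA cells and −0.03 to 0.09 in E14 cells); a replicate block gave 1596 interaction calls over all genes and 6 in place of 7 members for KO against WT under SB505124, where Ltbp1 lost its call (−0.22, adjusted p = 0.0549). The sign changes were, for TGFβ in PDA WT cells, Tgfb1 at 0.12 (range over left-out libraries −0.23 to 0.12) and Inhbb at −0.18 (range −0.18 to 0.24) without WT SB replicate 2, Inhbb at −0.08 without WT TGFβ replicate 1 and at −0.18 with quantile scaling. For TGFβ in PDA KO cells they were Ltbp3 at 0.04 with equal totals, 0.01 without KO SB replicate 2 and 0.21 without KO TGFβ replicate 2 (range −0.35 to 0.21), and Ltbp4 at −0.05 without KO SB replicate 1 and −0.33 without KO TGFβ replicate 1 (range −0.33 to 0.50). For the PDA interaction they were Tgfb3 at 0.01 without KO SB replicate 2 (range −0.27 to 0.01) and Inhbb at 0.18 without WT SB replicate 2 and 0.08 without WT TGFβ replicate 1 (range −0.24 to 0.18). In E14 cells they were Inhba at −0.79 with quantile scaling and Ltbp3 at 0.06 with equal totals, 0.03 without WT day 0 replicate 1 and 0.12 without WT day 4 replicate 2 (all WT; Ltbp3 range −0.14 to 0.12), and Fst at 0.17 in KO without KO day 4 replicate 1 (range −0.57 to 0.17). The causes were not tested. Depth limits Inhbb in PDA KO cells and Inhba and Tgfb3 in E14 cells, which rest on few reads. With KO day 0 replicate 1 or 2 left out, Inhba did not pass the filter, so the E14 counts of those fits leave it out untested. Levels per length were not run.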
